A study of Mus musculus with 6 samples.

Results

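The spindle assembly checkpoint genes described here are 10 genes, listed by symbol: *Ttk*, *Bub1*, *Bub1b*, *Bub3*, *Mad1l1*, *Mad2l1*, *Mad2l1bp*, *Kntc1*, *Zw10* and *Zwilch*. The list was chosen with earlier results of these data known, so shares of it set beside all genes are descriptions only. All 10 were found among the 53465 genes of the count table, and all 10 were among the 11842 genes with enough reads to be tested. Each RNA pool held 15 M II oocytes from 3 female Kunming (KM) mice aged 9 to 10 months, and there were 3 control pools and 3 pools matured with 10 μM quercetin, a plant flavonol. Both groups were primed with PMSG, stripped of cumulus cells at the germinal vesicle stage and matured in M16 medium for 16 h, with quercetin added from a stock in DMSO. Whether the control medium of these pools held DMSO was not given in the sources used here. Only oocytes that had reached M II entered a pool, and a pool value averages oocytes of several animals. Nothing in the labels says whether same-numbered pools share animals, so the p-values measure the spread between these pools.

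The checkpoint holds a dividing cell in metaphase until every kinetochore, the protein plate on a centromere, is bound by spindle microtubules. Unattached kinetochores recruit the kinase TTK (MPS1), which loads BUB1 and BUB3, and the MAD1-MAD2 complex, which turns MAD2 into the form that captures CDC20. MAD2, BUBR1 (from *Bub1b*) and BUB3 together with CDC20 form the mitotic checkpoint complex, which blocks the anaphase-promoting complex. The RZZ complex (ROD from *Kntc1*, ZW10 and ZWILCH) keeps MAD1-MAD2 and dynein at kinetochores, and p31comet (from *Mad2l1bp*) takes the complex apart. In oocytes this system times the first meiotic division, and loss of BUBR1 with age is a known theme in ovarian ageing.

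Library depth was similar between pools, and a gene at 3 counts stood at 0.328 to 0.375 CPM (reads as a share of the library, scaled by TMM), a floor that covers counting error only. The lowest count of a checkpoint gene in any pool was 58. All 12 oocyte markers had counts in every pool. Of 14 cumulus and granulosa markers, *Foxl2*, *Amh*, *Amhr2* and *Ptx3* were at 0 in every pool and 6 had counts in every pool, led by *Cyp19a1*, and their summed level was 82.4 to 101 CPM in the controls against 108 to 110 CPM after quercetin. Their part in the results was not tested. The summed theca and stroma markers stayed between 1.43 and 3.53 CPM and the blood and immune markers between 2.81 and 4 CPM. The first principal component, with 32.4% of the variance, placed quercetin replicates 1 and 2 at -37.9 and -30.9 and quercetin replicate 3 at 30.8. Control replicates 1 to 3 were at -3.34, 31.3 and 10.1, so on this component quercetin replicate 3 lay beside control replicate 2 and away from the other quercetin pools. The second component, with 24.9%, placed quercetin replicates 1 to 3 at -21.1, 41 and -4.18 and control replicates 1 to 3 at -32.3, 15 and 1.71. On it, quercetin replicates 1 and 2 lay farthest apart among the quercetin pools, with replicate 3 between them.

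To see how much of each checkpoint transcript M II oocytes carried, counts were divided by union exon length and scaled to the same sum in each pool (TPM). Because each pool mixes oocytes, fewer oocytes holding a transcript and less of it per oocyte cannot be told apart. CPM and TPM are shares of a library, so absolute amounts were not measured. The library kit copies polyadenylated RNA, and the amount of a transcript was not separated from the state of its poly(A) tail, between genes or between groups. *Bub1b* and *Mad2l1* dominated, and together they held 88.3% to 91.2% of the reads on the 10 genes in each pool. *Bub1b* was at 723 ± 28.1 TPM in the controls against 830 ± 144 TPM after quercetin, and *Mad2l1* at 510 ± 8.58 and 587 ± 53.1 TPM (SD, n = 3). *Mad2l1bp* followed at 185 ± 14.5 and 217 ± 23.3 TPM, then *Bub3* at 40.8 ± 5.88 and 44.8 ± 4.93 TPM (SD, n = 3). The pools of these 4 genes did not overlap with those of the next gene in the order. The remaining 6 genes lay lower, and each overlapped its neighbour. *Ttk* ran from 11.5 to 33.4 TPM over the 6 pools, *Bub1* from 8.42 to 28.3, *Zw10* from 6.67 to 18.4, *Zwilch* from 3.84 to 18.3, *Kntc1* from 7.6 to 10.1 and *Mad1l1* from 4.92 to 8.75. Levels of the MAD partners were thus far apart, with *Mad2l1* at 60.1 to 125 times the TPM of *Mad1l1* within a pool by union length.

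The order of the leading pair depended on the length used. The union of *Mad2l1* exons spans 8390 bases because of a long annotated transcript of 7557 bases, whereas its principal transcript has 1725 bases. With principal transcripts (chosen after seeing the data), *Mad2l1* averaged 1985 TPM over the 6 pools and *Bub1b* 673 TPM, so that *Mad2l1* came first, and the other 8 genes kept their places. Within a pool, *Mad2l1* was then at 211 to 441 times the TPM of *Mad1l1*. *Mad2l1* was higher than 97.7% of tested genes by union length and 99.4% by principal transcript, and *Bub1b* higher than 98.4% and 98%. *Mad1l1* lay near the middle of all tested genes, above 47.8% of them by union length.

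**Figure D1:**
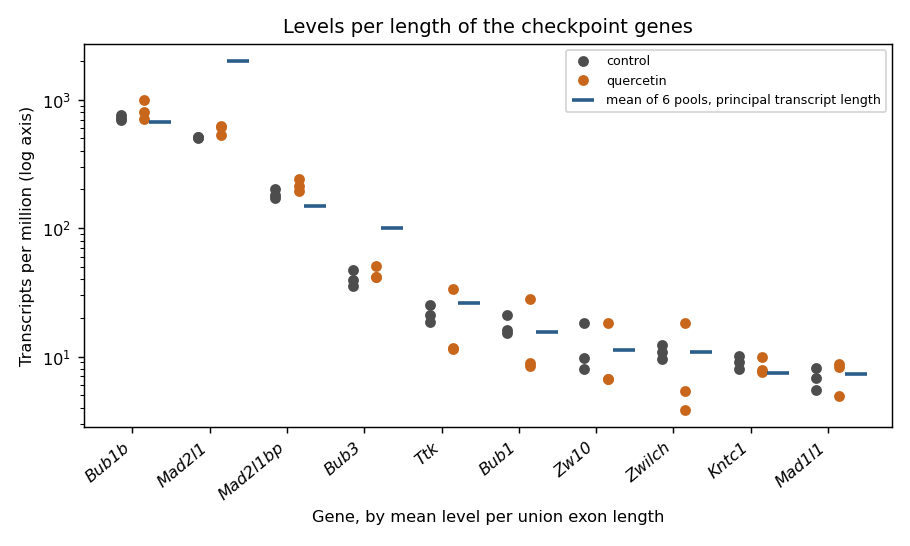
Levels per length (TPM, log axis) of the 10 checkpoint genes, with a point for each control (grey) and quercetin (orange) pool by union exon length and a blue bar for the mean of the 6 pools by principal transcript length. *Bub1b* and *Mad2l1* stand above the rest, and the blue bar moves *Mad2l1* from 549 to 1985.

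The sequences at the 3′ ends are shown because poly(A) tails of stored oocyte mRNAs are lengthened under control of the cytoplasmic polyadenylation element, and the library kit copies polyadenylated RNA. Its letters (TTTTAT or TTTTAAT, coding strand only, a choice made after the levels were seen) were searched in the last 100 bases of each gene's principal transcript. They occurred in 2 of the 10 genes, *Bub1b* and *Mad2l1*, and in 16% of 21711 genes with a complete 3′ end. The letters of the poly(A) signal (AATAAA or ATTAAA) occurred in 8 of the 10, with *Zw10* and *Zwilch* lacking them, and in 71.7% of the same genes. Matches describe the letters and not a working site. In *Mad2l1* the match starts 12 bases before the transcript end, after the poly(A) signal letters, which start 27 bases before it. The longer annotated *Mad2l1* transcript of 7557 bases was not searched. The windows of 30 bases below, from GENCODE transcripts on GRCm38, carry the match nearest the end in capitals.
*Bub1b*, chr2:118641553-118641582, plus strand: tttcactgtgtaTTTTATaataaaatagtt
*Mad2l1*, chr6:66540962-66540991, plus strand: tgtaataaagaactcttaTTTTAATgtttt

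Quercetin and control pools were then compared gene by gene, which asks whether quercetin during maturation altered the level of checkpoint transcripts. A gene was called when edgeR's quasi-likelihood test gave a Benjamini-Hochberg adjusted p below 0.05 together with more than a 2-fold change. This held for 0 of the 10 genes and for 0% of all 11842 tested genes. At an unadjusted p under 0.05, 0 of the 10 were reached, by this test and by DESeq2, edgeR's likelihood ratio test and limma-voom, against 4.03% of all tested genes in edgeR's quasi-likelihood test (2.14% higher and 1.89% lower with quercetin). By library size only, the latter split was 145 genes higher and 362 lower, in place of 253 and 224. Among all tested genes, DESeq2 called 12, the likelihood ratio test 16 and limma-voom 0. Adjusted p-values of the 10 genes ran from 0.988 to 0.996 in edgeR's quasi-likelihood test. The log2 fold changes (quercetin over control) were positive in 5 and negative in 5, from -0.28 to 0.29 with a median of 0.05, where all tested genes had a median of -0.03. The 95% interval lay inside a 2-fold change either way for 7 genes, and reached past it for *Bub1*, *Zw10* and *Zwilch*, for which a 2-fold fall was within the error.

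**Figure D2:**
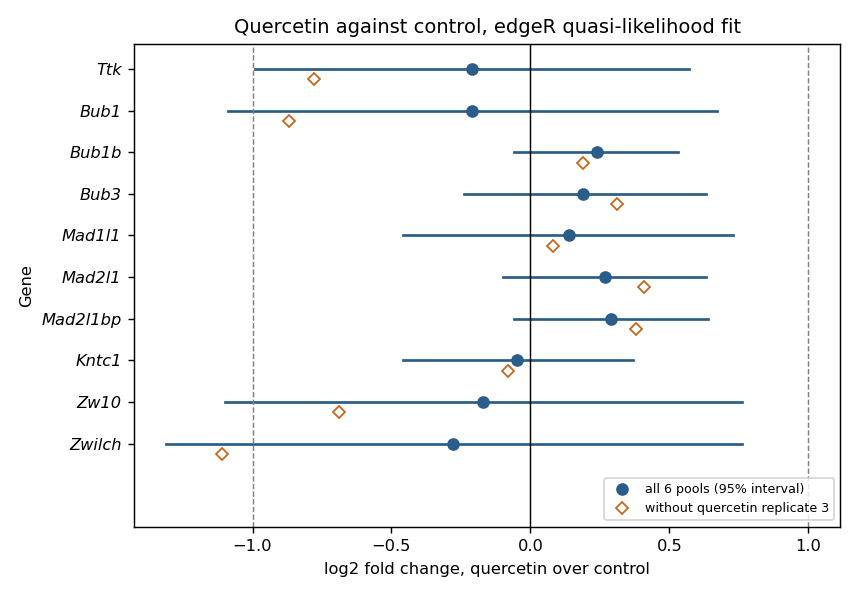
Log2 fold change of quercetin over control for each gene with its 95% interval (blue, all 6 pools) and the value without quercetin replicate 3 (open diamonds). The pool left out for the diamonds was picked after the values were seen. Dashed lines mark a 2-fold change, every interval crosses 0, and the diamonds of *Ttk*, *Bub1*, *Zw10* and *Zwilch* lie between -1.11 and -0.69.

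Of the kinases at the head of the pathway, *Ttk* (ENSMUSG00000038379, chr9:83834689-83872389) had 378, 423 and 348 reads in the controls against 201, 239 and 535 after quercetin, or 42.4, 50.9 and 39.2 CPM against 25.2, 26.2 and 63 CPM. Quercetin replicates 1 and 2 lay under every control pool and replicate 3 over every control pool. The log2 fold change of -0.21 (SE 0.35, 95% interval -0.99 to 0.57) had an adjusted p = 0.988 in edgeR's test.

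*Bub1* (ENSMUSG00000027379, chr2:127801122-127831865), the kinase that marks centromeric chromatin and recruits BUBR1, had 240, 309 and 266 reads in the controls against 137, 155 and 401 after quercetin. In CPM these were 26.9, 37.1 and 29.9 against 17.2, 17 and 47.2, which repeats the arrangement seen in *Ttk*, with quercetin pools on both sides of the controls. Its log2 fold change was -0.21 (SE 0.39, 95% interval -1.09 to 0.67, adjusted p = 0.99 in edgeR's test).

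Of the mitotic checkpoint complex, *Bub1b* (ENSMUSG00000040084, chr2:118598211-118641591), which encodes BUBR1, had 11658, 10129 and 11629 reads in the controls against 12030, 12734 and 13734 after quercetin. This gave 1308, 1218 and 1308 CPM against 1507, 1397 and 1617 CPM, so the quercetin pools all lay above the controls. *Bub1b* was the only one of the 10 genes without overlap, while pools did not overlap in 10.6% of all tested genes (5.42% higher and 5.17% lower with quercetin), and by library size only its pools overlapped as well. Its log2 fold change was 0.24 (SE 0.13, 95% interval -0.06 to 0.53, adjusted p = 0.988 in edgeR's test). A rise of at most 1.44-fold is therefore within the interval.

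*Bub3* (ENSMUSG00000066979, chr7:131560222-131571895), the partner that carries BUB1 and BUBR1 to the kinetochore scaffold, had 902, 944 and 1252 reads in the controls against 1036, 1496 and 957 after quercetin, or 101, 113 and 141 against 130, 164 and 113 CPM. The groups overlapped, and the log2 fold change was 0.19 (SE 0.19, 95% interval -0.24 to 0.63). Of its 31-base words, 2.53% also occur in other annotated genes, processed pseudogenes among them.

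*Mad2l1* (ENSMUSG00000029910, chr6:66535390-66547220), which encodes MAD2, had 15611, 14235 and 16374 reads in the controls against 18302, 21895 and 14372 after quercetin. In CPM, control pools were close together at 1752, 1711 and 1842, quercetin replicates 1 and 2 were above them at 2293 and 2402, and quercetin replicate 3 was under them at 1692, the mirror image of *Ttk* and *Bub1*. The log2 fold change was 0.27 (SE 0.16, 95% interval -0.10 to 0.63, adjusted p = 0.988 in edgeR's test), and 3.01% of its 31-base words occur in other annotated genes.

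*Mad1l1* (ENSMUSG00000029554, chr5:140008689-140321552), the kinetochore anchor of MAD2, had the lowest mean TPM of the 10 genes, with 108, 85 and 76 reads in the controls against 107, 76 and 104 after quercetin. It was not lowest in every pool. In quercetin replicate 1, *Mad1l1* was at 8.32 TPM by union length, above *Kntc1*, *Zw10* and *Zwilch* at 7.6, 6.74 and 3.84 TPM. Its pools overlapped fully, at 8.55 to 12.1 CPM and 8.34 to 13.4 CPM, and the log2 fold change was 0.14 (SE 0.26, 95% interval -0.46 to 0.73). Its exons overlap the antisense gene *Gm16121* over 1.01% of their length.

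*Mad2l1bp* (ENSMUSG00000034509, chr17:46147387-46153553), whose product p31comet ends the checkpoint signal, had 926, 777 and 835 reads in the controls against 1086, 1056 and 879 after quercetin. These were 104, 93.4 and 93.9 CPM against 136, 116 and 103 CPM, and the groups overlapped only by quercetin replicate 3 lying just under control replicate 1. Its log2 fold change of 0.29 (SE 0.15, 95% interval -0.06 to 0.64) was the largest upward value of the 10 and had an adjusted p = 0.988 in edgeR's test.

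The 3 genes of the RZZ complex differed in how they varied. *Kntc1* (ENSMUSG00000029414, chr5:123749716-123821593) varied little, with 261, 274 and 240 reads in the controls against 214, 267 and 258 after quercetin. Means were 29.7 ± 3 and 28.8 ± 1.82 CPM (SD, n = 3), for a log2 fold change of -0.05 (SE 0.18, 95% interval -0.46 to 0.37). *Zw10* (ENSMUSG00000032264, chr9:49055613-49078775) had 110, 236 and 140 reads in the controls against 91, 108 and 229 after quercetin. Control replicate 2 and quercetin replicate 3 stood apart at 28.4 and 27 CPM while the other 4 pools were at 11.4 to 15.8 CPM, and the log2 fold change was -0.17 (SE 0.41, 95% interval -1.10 to 0.76). *Zwilch* (ENSMUSG00000032400, chr9:64137144-64173104) had 149, 179 and 177 reads in the controls against 58, 97 and 255 after quercetin. Its CPM of 7.27 and 10.6 in quercetin replicates 1 and 2 lay under, and 30 in replicate 3 over, the controls at 16.7, 21.5 and 19.9, with a log2 fold change of -0.28 (SE 0.46, 95% interval -1.31 to 0.76). Exons of *Zwilch* overlap *Lctl*, on the other strand, over 5.93% of their length, and reads there could be split.

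**Figure D3:**
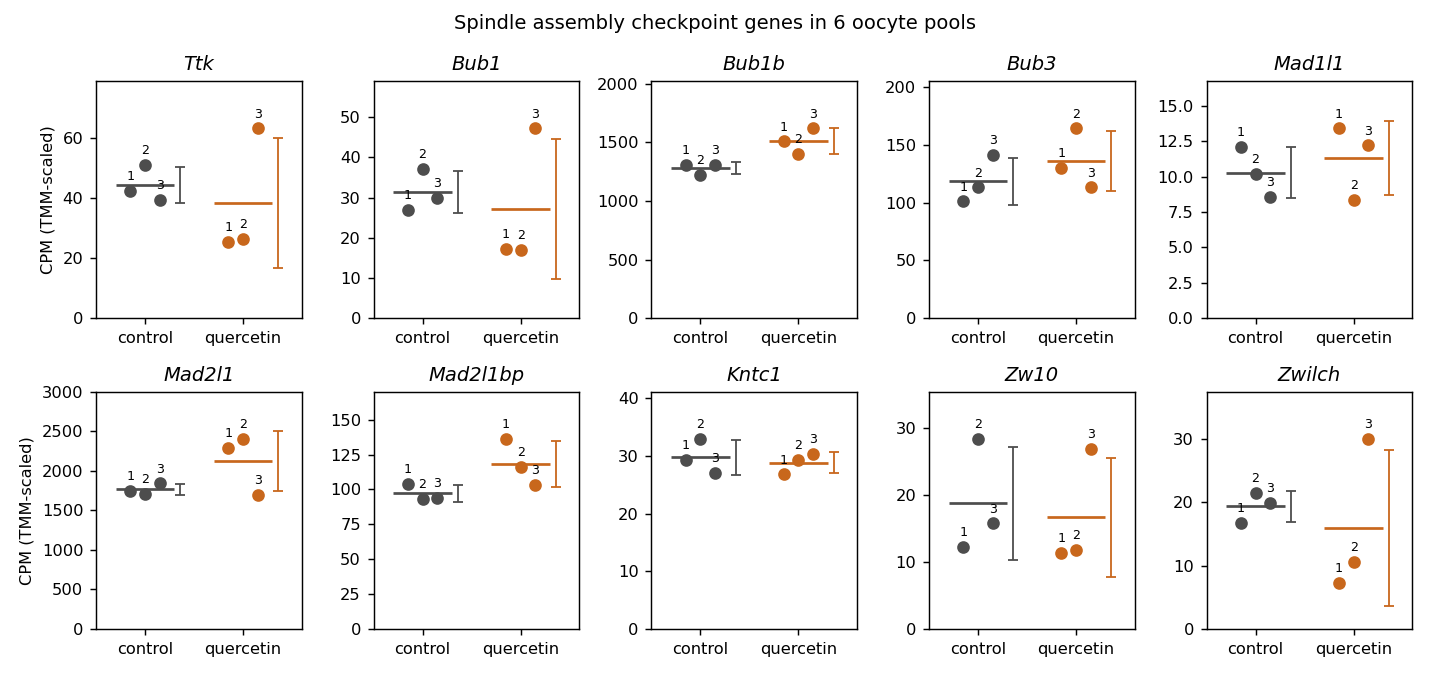
TMM-scaled CPM of each gene in every pool, with the replicate number above each point, the group mean as a line and the SD (n = 3) as a bar. In *Ttk*, *Bub1* and *Zwilch*, quercetin pools 1 and 2 lie under the 3 control pools and quercetin pool 3 above them.

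The quercetin pools of *Ttk*, *Bub1*, *Zw10* and *Zwilch* thus differed more from each other than the group means did, which was not particular to them. *Bub3*, for instance, ran from 113 to 164 CPM after quercetin, with means of 119 (control) and 136 CPM. *Bub1b* went the other way, at 1397 to 1617 CPM after quercetin with means of 1278 (control) and 1507 CPM. The SD of log2 CPM was wider in quercetin than in control pools for 9 of the 10 genes, against 60.3% of all tested genes, and *Kntc1* was the exception. For *Zwilch* it went from 0.18 to 1.04, for *Bub1* from 0.23 to 0.84 and for *Ttk* from 0.19 to 0.74. For *Zw10* it was 0.61 in the controls and 0.69 after quercetin, so its control pools spread nearly as much. On the log2 CPM scale, quercetin replicate 3 exceeded the mean of quercetin replicates 1 and 2 by 1.74 for *Zwilch*, 1.45 for *Bub1*, 1.29 for *Ttk* and 1.20 for *Zw10*. A gap over 1 was found in these 4 of 10 genes and in 9.02% of tested genes. Quercetin replicates 1 and 2 under and replicate 3 over every control pool was found for *Ttk*, *Bub1* and *Zwilch*, and for 6.12% of tested genes (8.61% by library size only, with the same 3 genes), a count chosen after seeing the data. *Mad2l1* alone showed the reverse, as did 3.33% of tested genes.

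**Figure D4:**
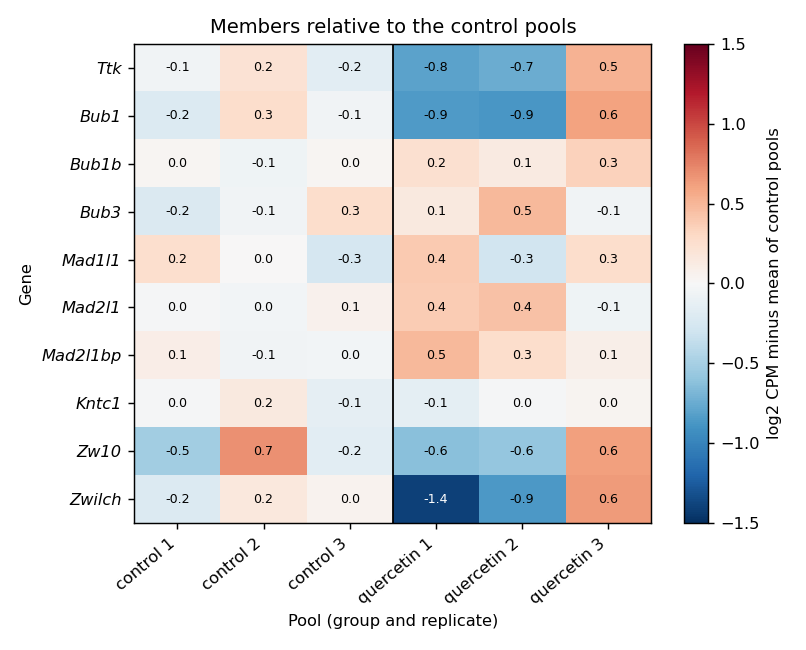
Log2 CPM of each gene in each pool minus the mean of the control pools (red above, blue under). Quercetin pools 1 and 2 are blue and pool 3 red for *Ttk*, *Bub1*, *Zw10* and *Zwilch*, while *Mad2l1* and *Mad2l1bp* are reddest in pools 1 and 2.

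Over the 6 pools, log2 CPM of *Bub1* correlated with *Ttk* at r = 0.987, with *Zwilch* at 0.962 and with *Zw10* at 0.893, and with *Mad2l1* at -0.926. These are descriptions of 6 points that share libraries and scaling. *Bub1* (r = 0.977), *Ttk* (0.958), *Zwilch* (0.957) and *Zw10* (0.916) followed the first principal component, and an r over 0.8 was found in 10.5% of tested genes. *Mad2l1* (-0.918) and *Mad2l1bp* (-0.852) ran against it, and the share of tested genes with an r under -0.8 was not counted. In the same pools, TMM factors were 0.946 and 0.92 for quercetin replicates 1 and 2 and 1.05 for replicate 3, and genes with at least 1 count numbered 18204, 18654 and 18945. The share of counts on the 100 most abundant genes was 37.1%, 37.9% and 35.1% in quercetin replicates 1 to 3 and 34.4%, 35.7% and 36.5% in control replicates 1 to 3, so quercetin replicates 1 and 2 lay above the other 4 pools. The share on mitochondrially encoded genes was 2.28%, 2.22% and 2.09% after quercetin and 3.11%, 2.96% and 2.47% in the controls, without overlap between the groups. The part of these measures in the split was not tested. The mean centred log2 CPM of the 10 was -0.20, -0.18 and 0.32 in quercetin replicates 1 to 3. This is the arrangement of *Ttk*, and *Mad2l1*, for one, did not share it. The genes whose profile was most like this mean had few reads. They were *3300002I08Rik* (r = 0.996 over 6 pools, 11 to 34 reads), *Gm19428* (r = 0.993, 27 to 80 reads) and *Gm36976* (r = 0.991, 29 to 69 reads).

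For *Ttk*, *Bub1* and *Zwilch*, quercetin replicate 3 lay on the other side of the controls from quercetin replicates 1 and 2. The comparison was therefore repeated without quercetin replicate 3, a pool picked after the values were seen. At an unadjusted p under 0.05, 5 of the 10 genes were then reached in edgeR's quasi-likelihood test, and so were 12.8% of 12258 tested genes. *Zwilch* (log2 fold change -1.11), *Bub1* (-0.87) and *Ttk* (-0.78) were lower, and *Mad2l1* (0.41) and *Mad2l1bp* (0.38) higher, with adjusted p = 0.229 to 0.342 in edgeR's test, so none was called. Without quercetin replicate 1, or without replicate 2, 0 of the 10 passed an unadjusted p under 0.05 in the same test. The log2 fold changes were then 0.03 and 0.04 for *Bub1*, 0.01 and -0.0004 for *Ttk*, and 0.07 and -0.05 for *Zwilch*.

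Promoters were then read from the RefSeq table (GRCm38.p6), which holds 300 bases around the start of 9 of the 10 genes. *Zwilch* had no entry. The letters of the cell cycle genes homology region (TTTGAA, or TTCAAA on the other strand), at which the MuvB complex acts on many genes of late cell cycle, were found in 5 of the 9, and in 20.2% of 27025 genes with a promoter. These letters were chosen after the values were seen, and a match is a description only. The CCAAT box (CCAAT or ATTGG), the site of NF-Y, was also found in 5 of the 9, and in 41.1% of genes. Of the genes that varied together, *Ttk* and *Zw10* held TTTGAA on either strand and *Bub1* did not, while *Kntc1*, which varied little, held it too. Promoter activity during maturation was not measured, and a link between these letters and the spread between pools was not tested. The windows below have these letters in capitals, and in *Kntc1* they share 1 base with a CCAAT box.
*Ttk*, chr9:83834684-83834713, plus strand: cagcggggaaatTTCAAAcgtgtttccgga
*Zw10*, chr9:49055421-49055450, plus strand: aacagactggcgTTTGAAaacctgtaggga
*Kntc1*, chr5:123749706-123749735, plus strand: ttctcccgccaaTTCAAAtcagtggcaggg
*Bub3*, chr7:131560315-131560344, plus strand: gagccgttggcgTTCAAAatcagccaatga
*Bub1b*, chr2:118598231-118598260, plus strand: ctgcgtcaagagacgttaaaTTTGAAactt

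Ratios of partners within a pool hardly depend on how pools are scaled, and 6 were compared by exact permutation (two-sided), for which 3 against 3 pools allow no p below 0.1. The log2 ratio of *Mad2l1bp* to *Mad2l1* counts, the inhibitor against its target, was -4.18 ± 0.11 in the controls against -4.16 ± 0.19 after quercetin (SD, n = 3, exact permutation test, p = 0.8). *Bub1b* to *Bub3* was 3.44 ± 0.24 and 3.49 ± 0.38 (SD, n = 3, exact permutation test, p = 0.9), and *Mad1l1* to *Mad2l1* was -7.41 ± 0.29 and -7.54 ± 0.54 (SD, n = 3, exact permutation test, p = 0.8). *Bub1* to *Bub3* went from -1.91 ± 0.31 to -2.47 ± 1.07 (SD, n = 3, exact permutation test, p = 0.4), with quercetin replicates at -2.90, -3.25 and -1.25. This difference of -0.56 was -1.17 without quercetin replicate 3, -0.34 without replicate 1 and -0.16 without replicate 2. In the RZZ complex, *Zwilch* to *Zw10* went from 0.12 ± 0.45 to -0.21 ± 0.40 (exact permutation test, p = 0.4) and *Kntc1* to *Zw10* from 0.74 ± 0.51 to 0.89 ± 0.63 (exact permutation test, p = 0.8). After Benjamini-Hochberg adjustment over the 6 ratios, every one of these exact permutation tests had an adjusted p = 0.9.

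Other genes of the pathway were taken from 3 lists. Of 13 genes of the outer kinetochore, which binds microtubules and receives the checkpoint proteins, 12 were tested and 0 passed an unadjusted p under 0.05 in edgeR's quasi-likelihood test or in DESeq2, with a median log2 fold change of 0.20. The values were positive in 9 and negative in 3, beside 46.4% positive among all tested genes. The pools of *Ndc80*, *Zwint* and *Spdl1* did not overlap and were higher after quercetin, as in 5.42% of all tested genes. By library size only, *Spdl1* overlapped, while *Dsn1* and *Spc25* no longer did and were higher. The share of all genes by that scaling was not counted. Without quercetin replicate 3, 5 genes of the list passed, beside 12.8% of all genes, and without control replicate 1 it was 1. Their smallest p-values belonged to *Zwint*, a KNL1 partner that helps hold the RZZ complex, at 25.1, 18.6 and 23.2 CPM in the controls against 30.4, 33.1 and 25.5 CPM after quercetin (log2 fold change 0.41, SE 0.21, adjusted p = 0.988 in edgeR's test), and to *Dsn1* of the MIS12 complex (0.32, SE 0.16, with the same adjusted p). *Nsl1*, with 2 to 15 counts, was not tested. *Cenpf* and *Cenpe*, a corona protein and a kinetochore motor, were noted after their values were seen because they showed the arrangement of *Ttk*. It was found in these 2 of the 12 tested genes and in 6.12% of all tested genes, and the reverse in 0 of the 12. *Cenpf* was at 319, 330 and 320 CPM in the controls against 184, 169 and 445 CPM after quercetin.

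Of 13 genes that silence or modify the checkpoint, 12 were tested and 1 passed an unadjusted p under 0.05, beside 4.03% of all tested genes. This was *Sgo1*, a shugoshin that guards centromeric cohesion, at 64.7, 57.7 and 71.8 CPM in the controls against 89.6, 86.1 and 78.2 CPM after quercetin. Its log2 fold change was 0.39 (SE 0.16, adjusted p = 0.988 in edgeR's test). Without control replicate 1 or 2, or quercetin replicate 1 or 2, 0 genes of the list passed, and without quercetin replicate 3 it was 2, beside 12.8% of all genes tested then. *Usp44*, with 0 to 15 counts, was not tested. The median log2 fold change of the list was 0.002. The pools of *Sgo1* and *Cdca8* did not overlap and were higher after quercetin, as in 5.42% of all tested genes. By library size only, *Cdca8* overlapped. *Tpr*, a nuclear pore protein that binds MAD1, was the 1 gene of this list with the arrangement of *Ttk*, beside 6.12% of all tested genes. *Aurkc* was the 1 gene with the reverse, beside 3.33%. Both were also noted after their values were seen.

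Of 18 genes of the anaphase-promoting complex and its helpers, the target of the checkpoint, all 18 were tested, with a median log2 fold change of 0.03. The single gene with an unadjusted p under 0.05, which 4.03% of all tested genes passed, was *Ube2s*, which extends ubiquitin chains for the complex, at 15.5, 10.7 and 10.5 CPM in the controls against 7.52, 8.77 and 8.47 CPM after quercetin (log2 fold change -0.56, SE 0.25, adjusted p = 0.988 in edgeR's test). Without any of the control pools or quercetin replicate 1, and with DESeq2, 0 genes of the list passed. The pools of *Ube2s* did not overlap and were lower after quercetin, as in 5.17% of all tested genes. By library size only, *Anapc1* did not overlap either and was lower, and the share of all genes by that scaling was not counted. None of the genes of this list showed the arrangement of *Ttk*, beside 6.12% of all tested genes. *Anapc10* was the 1 gene with the reverse, beside 3.33%. No gene of the 3 lists was called in edgeR's test.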

How the data were processed

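RNA was measured in 6 pools of M II oocytes, and groups and replicate numbers came from the sample titles. Per the paper's methods, the authors aligned reads with Hisat2 to GRCm38.91, and they deposited counts, whole reads per gene for 53465 Ensembl identifiers, without normalization. The submitters' processing notes also name TopHat2 2.0.6 and CASAVA 1.8, with no role given. The counting program and its strand setting were not given in the sources used here. Symbols matched 53274 identifiers. Coordinates are from GENCODE release M21, on GRCm38, and promoters from RefSeq on GRCm38.p6.

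Total counts ran from 7880467 to 9938743 per pool. Genes passing filterByExpr (minimum count 10) were scaled by TMM and compared with edgeR 4.0.16 (quasi-likelihood test with the group alone as a term, R 4.3.3), and p-values were adjusted after Benjamini-Hochberg across the whole table. Standard errors (SE) are |log2 fold change| over the root of F. The fit was tested on simulated data. Ratios and log2 values used a prior count of 2. Alternatives were DESeq2 1.42.0, the likelihood ratio test, limma-voom (limma 3.58.1), RLE or library-size scaling, other filters, each pool left out, and the replicate block. Principal-transcript lengths and the pattern across quercetin pools were added after seeing the data. Python 3.11.15, scipy 1.17.1 and matplotlib 3.10.9 were also used.

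The members and lists were chosen with earlier results of these data known. Named genes were all members, the wider-list genes with an unadjusted p under 0.05 or else the 2 smallest p, and the 3 genes most like the members' mean profile. Outside this rule, and after their values were seen, the text names *Cenpf*, *Cenpe*, *Tpr*, *Aurkc* and *Anapc10* for their pattern. It also names *Ndc80*, *Spdl1*, *Spc25*, *Cdca8* and *Anapc1* for pools without overlap, and *Nsl1* and *Usp44* as not tested. No member fell under the filter, so no separate test of untested members was made.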

Additional observations from a re-analysis of the deposited data

How the results depend on the processing

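No checkpoint gene passed an adjusted p under 0.05 with a fold change over 2 in any alternative run, and of 140 values of their log2 fold changes under alternatives, 10 changed sign, all on leaving out 1 pool. Leaving out each pool in turn, log2 fold changes ran from -0.87 to 0.04 for *Bub1*, -0.78 to 0.01 for *Ttk*, -0.69 to 0.25 for *Zw10*, -1.11 to 0.07 for *Zwilch*, -0.10 to 0.04 for *Kntc1* and -0.002 to 0.32 for *Mad1l1*. They stayed positive for *Bub1b* (0.19 to 0.29), *Bub3* (0.03 to 0.34), *Mad2l1* (0.17 to 0.41) and *Mad2l1bp* (0.18 to 0.38). Differences of log2 ratios ran from -0.04 to 0.13 for *Mad2l1bp* to *Mad2l1*, -0.36 to 0.17 for *Mad1l1* to *Mad2l1*, -0.13 to 0.25 for *Bub1b* to *Bub3*, -0.11 to 0.51 for *Kntc1* to *Zw10*, -1.17 to -0.16 for *Bub1* to *Bub3* and -0.59 to -0.12 for *Zwilch* to *Zw10*. The number of checkpoint genes with an unadjusted p under 0.05 ran from 0 to 5 on leaving out a pool, of outer kinetochore genes from 0 to 5, of silencing and modifier genes from 0 to 2 and of anaphase-promoting complex genes from 0 to 1, with the highest values, other than the last, without quercetin replicate 3. With *Sgo1*, the silencing list went to 0 under the likelihood ratio test, library size only and the replicate block. With *Ube2s*, the anaphase-promoting complex list went to 0 under DESeq2, the likelihood ratio test, limma-voom, RLE scaling, no filter beyond 1 count and the replicate block. The cause was not tested.

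Over all genes, calls rose from 0 to 12 with DESeq2, 16 with the likelihood ratio test and 3 with no filter beyond 1 count, and ran from 0 to 7 on leaving out a pool. Unadjusted p under 0.05 was reached by 477 genes, by 780 with no filter, and by 241 to 1563 on leaving out a pool (241 without control replicate 2, 1563 without quercetin replicate 3). With a fold change over 2 as well, 422 were reached with no filter and 48 with at least 10 counts in every pool, and 118 to 487 on leaving out a pool. Scaling by library size only shifted the median log2 fold change of all genes to -0.111 and split the unadjusted calls into 145 higher and 362 lower, in place of 253 and 224, and RLE scaling gave 297 and 202, with no change of sign among the checkpoint genes. By principal transcript length, 8 of the 10 genes kept their place in the order.

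Pools carry replicate numbers 1 to 3 in both groups. Deviations of same-numbered pools from their group means correlated at 0.296, 0.101 and -0.0303, beside a mean of -0.0612 for different numbers. These values do not settle whether pools were paired. The labels give no pairing, so the numbers were not taken as pairs. With the replicate block, 0 checkpoint genes passed an unadjusted p under 0.05, and over all genes 222 were higher and 270 lower. The lowest count of a checkpoint gene in a pool was 58, and counting error was not separated from the spread between pools.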
